A study of Mus musculus with 18 samples.

Results

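The comparison set 3 colon libraries from mice given azoxymethane and dextran sodium sulfate (AOM/DSS) against 3 colon libraries from mice given DSS alone, all 6 labelled RNF138-/-. Its members were chosen by their labels and are 6 of the 18 libraries of the series. DSS is a sulfated polymer that injures the colon epithelium, and AOM is a carcinogen that, given before DSS, produces colitis-associated colon tumors (the CAC model). All mice were C57BL/6, aged 6 to 8 weeks at the start and of either sex by the study's methods. The DSS group drank 2% DSS for 7 days and water for 14 days, repeated the cycle 2 times, and was killed 4 weeks after the last cycle. The AOM/DSS group was injected once with AOM at 10 mg/kg, kept for 4 days and then carried through the same kind of DSS cycles. Both groups thus carried the same genotype label, and the injection with its short wait is the only difference the labels give. The sources used here do not say whether each library came from 1 mouse, and they do not say how much of the frozen colorectal tissue was tumor. The comparison asks what the carcinogen, and the tumors it gives rise to, add to chronic colitis in colon labelled RNF138-/-. Wild type libraries, labelled so and called RNF138 fl/fl in the treatment notes, 3 given DSS and 3 given AOM/DSS on the same schedules, served to ask whether the difference was the same there.

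The colon lining is renewed from Lgr5-positive stem cells at the crypt base, which depend on Wnt signals. When a Wnt signal is received, beta-catenin enters the nucleus with TCF/LEF factors and turns on target genes, among them secreted and membrane inhibitors that feed back on the pathway. Daughter cells leaving the base become absorptive colonocytes, mucus-making goblet cells, hormone-making enteroendocrine cells or chemosensory tuft cells. Colon tumors in mice and people commonly carry an overactive Wnt pathway, and colitis adds cytokines, many of them targets of the transcription factor NF-κB, and recruited neutrophils.

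Total counts in the 6 libraries were between 15733841 and 19608929, against 11514716 to 24390082 over the series. Levels are given as CPM, a gene's counts scaled to a common library size, after a single TMM normalization over the 6 libraries. A gene was called at an adjusted p under 0.05 (edgeR quasi-likelihood test, Benjamini-Hochberg) and a fold change of at least 2. Rnf138 itself, a ubiquitin ligase, does not check the RNF138-/- label, since the sources used here do not say which part of the gene is deleted. It had 21.7, 20.3 and 21.6 CPM under DSS and 43.6, 49.6 and 49.7 CPM under AOM/DSS, and it was higher after AOM/DSS (log2 fold change 1.17, SE 0.16, adjusted p = 0.00112). On a scale set over all 12 colon libraries it had 16.7, 19.2 and 26.9 CPM in the wild type DSS libraries and 29.5, 29.2 and 23 CPM in the wild type AOM/DSS libraries. On the same scale it had 20.8, 19.3 and 20.5 CPM in the DSS libraries labelled RNF138-/- and 42.5, 48.7 and 49 CPM in the AOM/DSS libraries so labelled, so the genotypes overlapped under DSS and the labelled libraries were above wild type under AOM/DSS. All 6 are therefore called the libraries labelled RNF138-/-, replicates named RNF138-/- are named by that label, and no direction below is drawn from the genotype of the animals. Processed pseudogenes took 0.505% to 0.545% of the counts in the AOM/DSS libraries and 0.144% to 0.176% in the DSS libraries. In wild type the shares were 0.378% to 0.489% and 0.128% to 0.16%, so this feature moved with the treatment in both genotypes and cannot be told apart from it. Mitochondrial rRNA genes took 0.0361% to 0.0746% of counts after AOM/DSS and 0.199% to 0.434% after DSS. In wild type these shares were 0.0922% to 0.3% and 0.158% to 0.271%, which overlap. The part of both in the results was not tested. AOM/DSS wild type replicate 3 stood apart from its group and enters only the comparison with wild type, where counts are given with and without it. The 3 DSS libraries labelled RNF138-/- also differed among themselves. The chi-square per degree of freedom between their counts was 143.5 for replicates 1 and 3, 89.9 for 2 and 3 and 59.1 for 1 and 2, against 29.1 to 36.5 among the AOM/DSS libraries so labelled and 109 and 121 for the wild type replicate against its group.

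Of 17993 genes tested, 2895 were higher (16.1%) and 3475 lower (19.3%) after AOM/DSS, 35.4% in all, and the CPM of the groups did not overlap for 60.4%. Counts on the lists below stand beside these shares. Of the 985 processed pseudogenes tested, 700 were called higher and 21 lower, and among 14862 protein-coding genes 1734 were higher and 3138 lower. Scaling moved the split of the calls: 45.4% of them were higher under TMM, 63% when scaled to library size alone (4359 higher, 2560 lower), and 82.9% when scaled to the summed epithelial markers (8056 higher, 1664 lower, an alternative added after the data were seen). The median gene stood at 0.02 on the log2 scale under TMM, at 0.36 with library size alone and at 0.93 with epithelial scaling. Of the 12 markers used for epithelial scaling 6 were themselves called lower and none higher under TMM (median -0.94). Their sum was lower after AOM/DSS, so scaling to it moves the genes up as a whole. Values are under TMM unless another scaling is named. With epithelial scaling the medians of the fibroblast, endothelium, collagen, BMP, Hox, gastric, glycolysis, claudin and prostaglandin lists turned from below to above 0. The collagen, glycolysis and claudin medians also did so with library size alone. The calls moved too: with epithelial scaling there were 8 higher and 2 lower claudin genes, 10 and 0 p53 and damage genes, 6 and 0 glycolysis genes, 3 and 4 tuft cell genes, 3 and 2 epithelial markers, 4 and 2 fibroblast markers, 3 and 0 endothelial markers and 2 and 5 T and NK cell markers.

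Muscle, nerve and fat genes were far lower after AOM/DSS. All 13 tested smooth muscle markers were lower (median log2 fold change -5.26). Myh11, the smooth muscle myosin heavy chain, had 4290.4, 3129 and 2164 CPM under DSS and 38.9, 42.3 and 56.4 CPM under AOM/DSS (log2 fold change -6.12, SE 0.38, adjusted p = 6.75e-05). Desmin (Des) had 4791, 2596 and 966 CPM under DSS and 5.84, 5.58 and 29.97 CPM under AOM/DSS. Calponin (Cnn1) had 2602, 1525 and 599 CPM under DSS and 6.25, 5.14 and 21.2 CPM under AOM/DSS. In each of the 3 genes the highest AOM/DSS library stood far below the lowest DSS library. The summed smooth muscle markers, as CPM of the raw library total, were 7200.0 to 16944 in the DSS libraries and 284 to 463 in the AOM/DSS libraries, with no marker at 0. Markers of enteric neurons and glia were lower too. 11 of 13 neuron markers were lower (median -4.55) and 7 of 9 glia markers (median -3.47). Prph, the neuronal filament peripherin, had 69.2, 29.2 and 20.2 CPM under DSS and 0.175, 0.177 and 0.246 CPM under AOM/DSS (log2 fold change -7.58, SE 0.63, adjusted p = 0.000173). Vip, the gut relaxant neuropeptide, had 33.4, 45.6 and 32 CPM under DSS and 0, 0.221 and 0.393 CPM under AOM/DSS. Sox10, the glial regulator, had 22.9, 16.6 and 6.95 CPM under DSS and 0.175, 0.0885 and 0.0491 CPM under AOM/DSS. Of 7 adipocyte markers 5 were lower (median -4.19), Plin4, a lipid droplet protein, going from 29.7, 20.7 and 41.9 CPM under DSS to 1.58, 0.885 and 1.33 CPM under AOM/DSS.

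In bulk tissue, fewer cells of a type and less RNA of a gene per cell cannot be told apart, and their part in the other results was not tested. Of the 12 epithelial markers, 6 were lower and none higher (median -0.94), and their summed level was 15956 to 17767 CPM of the raw total in DSS and 10526 to 12399 in AOM/DSS, so the tissue held epithelial RNA in all 6 libraries. Epcam, Cdh1 and Krt18, the only 3 of the 12 above 0, had log2 fold changes of 0.23, 0.40 and 0.34 and were not called, and the other 9 were below 0. The lower ones included Cdx2, the intestinal identity factor, with 214, 271 and 241 CPM under DSS and 15.5, 8.54 and 3.68 CPM under AOM/DSS, and Krt20, a keratin of mature surface cells, with 1242, 1195 and 849.9 CPM under DSS and 257, 54.3 and 101 CPM under AOM/DSS. The 12 fibroblast markers had 4 lower and none higher (median -0.89, or 0.04 with epithelial scaling), led by Dpt (log2 fold change -3.38, SE 0.35, adjusted p = 0.000384). Of 13 endothelial markers 3 were lower (23.1%) and 1, Prox1, higher (7.69%), against 19.3% lower and 16.1% higher of all genes. Prox1 is also a Wnt target of colon tumors and is described with that list.

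**Figure D1:**
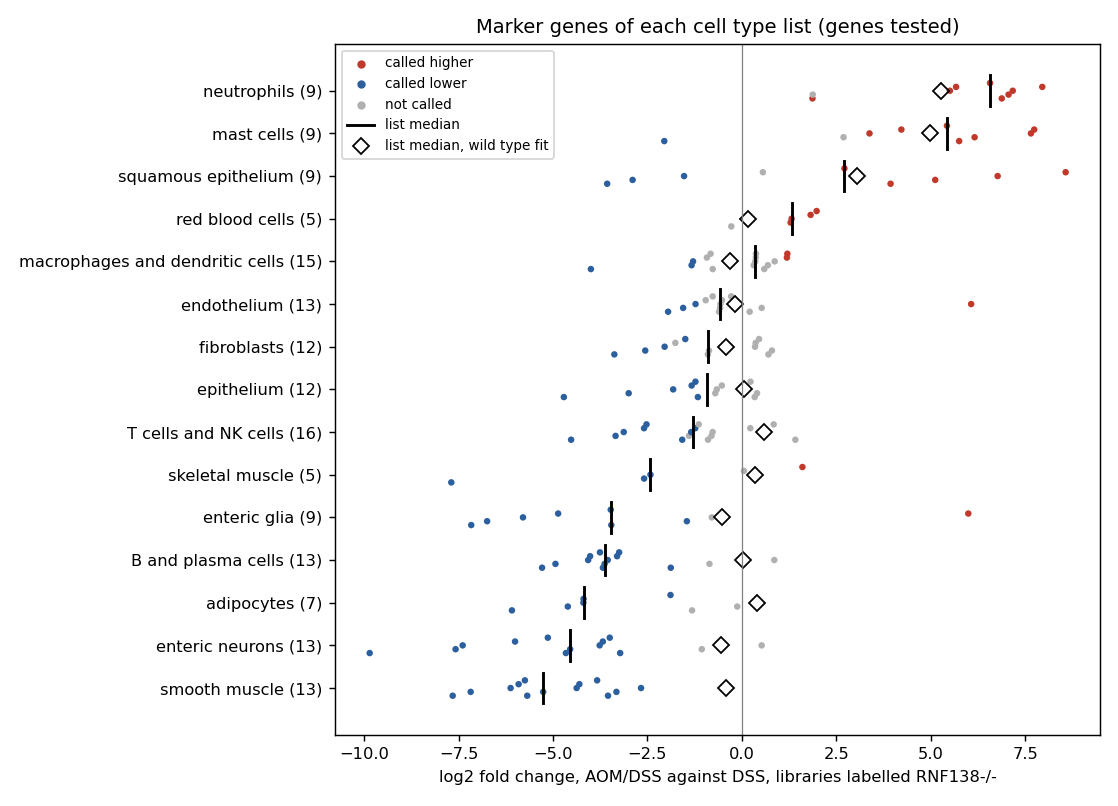
Each point is 1 tested marker gene, placed by its log2 fold change of AOM/DSS against DSS in the libraries labelled RNF138-/- (x axis), for the cell type lists with at least 3 tested genes (y axis, number tested in brackets). Red and blue points were called higher and lower, black bars are list medians and open diamonds are list medians in the wild type fit, over the genes tested there (4 squamous, 8 neutrophil and 15 T and NK cell genes, for example). Smooth muscle sits at -5.26 and neutrophils at 6.57.

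Wnt targets and feedback inhibitors rose together. Of 22 genes on the list, 18 were higher and 1 lower, with a median log2 fold change of 3.24, against 16.1% and 19.3% of all genes and a median of 0.02. Notum (chr11:120653788-120661175 on GRCm38, minus strand), a secreted enzyme that strips the lipid from Wnt ligands, had 0.936, 0.54 and 0 CPM under DSS and 260.2, 236 and 252 CPM under AOM/DSS (log2 fold change 9.01, SE 0.67, adjusted p = 0.000126). Wif1, a secreted Wnt-binding inhibitor, had 1.14, 3.31 and 6.72 CPM under DSS and 468, 784 and 658 CPM under AOM/DSS (log2 fold change 7.41, SE 0.66, adjusted p = 0.000213). Prox1, a homeobox factor, had 3.81, 6.08 and 13.7 CPM under DSS and 457, 558 and 569 CPM under AOM/DSS (log2 fold change 6.07, SE 0.51, adjusted p = 0.000175). For each of the 3 genes every AOM/DSS library lay far above every DSS library. Further members higher, named after their values were seen, were the receptor inhibitor Apcdd1 (5.50), the nuclear partner Lef1 (4.40), the antagonist Dkk2 (4.09) and the inhibitor Nkd1 (3.37), all as log2 fold changes. The exception was Nkd2, a relative of Nkd1, at -3.05, while Ephb2, Ephb3 and Dkk3 were not called (0.84 to 0.94). With epithelial scaling 21 were higher and 1 lower.

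Sp5 is a direct target of beta-catenin in other systems, and its promoter is shown for the TCF/LEF letters it holds. CTTTGAT was searched on both strands in the 250 bases before each RefSeq start (GRCm38.p6). It was found in 1 of the 14 list members matched to the promoter table, Sp5, and in 3.21% of all 32851 promoter windows. The absence of these letters from the other windows says nothing about sites elsewhere. The 90 bases that end 30 bases before the start, chr2:70474803-70474892 on the plus strand, read as follows, with the match in capitals.
Sp5: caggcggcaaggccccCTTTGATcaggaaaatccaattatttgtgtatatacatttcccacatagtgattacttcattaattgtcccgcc

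Sp5, a zinc-finger factor on the same list, had 1.2, 2.97 and 0.584 CPM under DSS and 68.4, 46 and 37.4 CPM under AOM/DSS (log2 fold change 5.004, SE 0.56, adjusted p = 0.000507), above every DSS library in every AOM/DSS library.

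Stem cell genes, 19 on a list that shares 7 genes with the Wnt list, had 12 higher and 2 lower (median 1.59). Lgr5 (chr10:115450311-115587780, minus strand), the R-spondin receptor of crypt base stem cells, had 4.21, 4.39 and 7.3 CPM under DSS and 132, 359.9 and 232 CPM under AOM/DSS (log2 fold change 5.50, SE 0.45, adjusted p = 0.000168). Axin2, a scaffold that destroys beta-catenin and a standard readout of the pathway, had 27.5, 34 and 31.4 CPM under DSS and 448, 436 and 458 CPM under AOM/DSS (log2 fold change 3.85, SE 0.19, adjusted p = 3.7e-05). Rnf43, a ligase that removes Wnt receptors, had 20.2, 38.7 and 37.6 CPM under DSS and 371, 413 and 391 CPM under AOM/DSS. The AOM/DSS libraries lay above every DSS library for all 3, and they differed little from each other for Axin2 and Rnf43. Olfm4 (2.17), Smoc2 (3.10) and Tnfrsf19 (3.15), picked after their values were seen, were also higher on the log2 scale, while Aqp4 (-2.41) and Rgmb (-1.35) were lower. Among ligands and secreted modulators of the pathway, 4 of 17 were higher and 8 lower (median -1.02), or 6 and 4 with epithelial scaling (median -0.08). Without DSS RNF138-/- replicate 1 the median was -0.46, and without DSS RNF138-/- replicate 3 it was -1.42. The ligands Wnt6 (log2 fold change 5.23, SE 0.38, adjusted p = 0.00012) and Wnt10a (log2 fold change 5.68, SE 0.77, adjusted p = 0.000977) were higher, as was Wnt3 (6.61, named after its value was seen). Rspo1, a secreted amplifier of Wnt signals, went from 19.6, 9.25 and 3.33 CPM under DSS to 0.117, 0 and 0.295 CPM under AOM/DSS (log2 fold change -6.24, SE 1.00, adjusted p = 0.00192), and Rspo3, named after its value was seen, was lower too (-3.14).

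**Figure D2:**
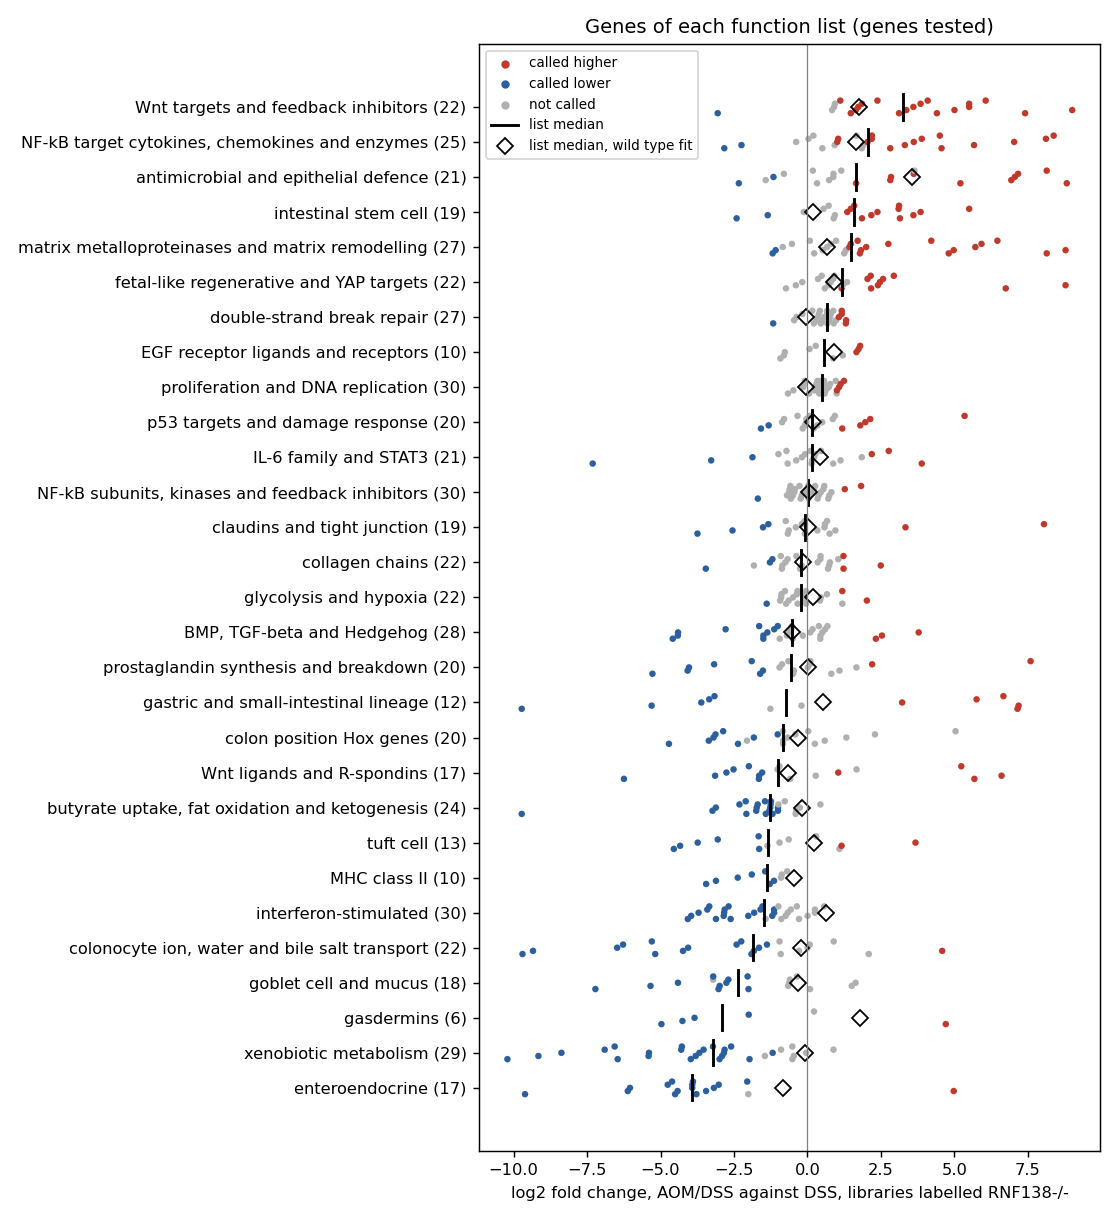
Each point is 1 tested gene of a function list, placed by its log2 fold change of AOM/DSS against DSS in the libraries labelled RNF138-/- (x axis). Lists are ordered by their medians (black bars), from enteroendocrine at -3.92 to Wnt targets at 3.24. Red and blue points were called higher and lower, and open diamonds are list medians in the wild type fit, over the genes tested there, which were fewer on some lists.

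Differentiated colonocyte genes went the other way. Of 22 genes for ion, water and bile salt transport 14 were lower and 1 higher (median -1.86). Aqp8, the colonocyte water channel, had 1924, 599.9 and 109.5 CPM under DSS and 0.76, 0.576 and 2.7 CPM under AOM/DSS (log2 fold change -9.34, SE 1.30, adjusted p = 0.0011). Car4, a membrane carbonic anhydrase, had 1259.5, 586 and 471 CPM under DSS and 5.02, 1.11 and 19.9 CPM under AOM/DSS (log2 fold change -6.47, SE 1.05, adjusted p = 0.00205). In both genes the DSS libraries differed several-fold among themselves and still did not overlap the AOM/DSS libraries. Slc51a, a bile salt exporter, had 0.802, 30.7 and 152 CPM under DSS and 0.0584, 0.0443 and 0.0983 CPM under AOM/DSS, a wide spread in DSS, and its call was lost under limma-voom (adjusted p = 0.094). The chloride exchanger Slc26a3 (-5.30) and the hormone Guca2a (-6.27), picked after their values were seen, were lower, and the 1 gene higher was Scnn1g, a sodium channel subunit (4.59).

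Of 29 tested xenobiotic metabolism genes, 22 were lower and none higher (median -3.21), and with epithelial scaling 21 were lower and 1 higher. Cyp2c55 (chr19:39007019-39042693, plus strand), a cytochrome P450 epoxygenase, had 472, 1706 and 1777 CPM under DSS and 0.409, 0.576 and 2.31 CPM under AOM/DSS (log2 fold change -10.21, SE 0.94, adjusted p = 0.000244). Its neighbour Cyp2c65 had 63.2, 235 and 418 CPM under DSS and 0.935, 0.133 and 1.13 CPM under AOM/DSS, but 20.6% of the 50-base windows along its transcripts recur in another gene, so its reads are less certain. Ugt2b5, a glucuronosyl transferase with 41.7% shared windows, had 4.95, 19.4 and 45.3 CPM under DSS and 0.117, 0 and 0 CPM under AOM/DSS, a ratio of 727 (95% counting interval 201 to 6014) in favour of DSS. Butyrate, the main colonocyte fuel, is taken up by Slc5a8 and burned in mitochondria, and 18 of 24 genes of this group were lower and none higher (median -1.28). Slc5a8 had 139, 119.7 and 119 CPM under DSS and 13.8, 3.59 and 26.2 CPM under AOM/DSS (log2 fold change -3.12, SE 0.60, adjusted p = 0.00429). Fabp2, a fatty acid binding protein, had 1071, 697 and 557 CPM under DSS and 0.935, 0.443 and 1.38 CPM under AOM/DSS (log2 fold change -9.72, SE 0.53, adjusted p = 4.67e-05). Here scaling mattered: with epithelial scaling 5 were lower and 1 higher (median -0.40).

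Goblet cell and enteroendocrine genes were lower as well. Of 18 goblet cell genes 10 were lower and none higher (median -2.36). Clca1, a secreted mucus protease, had 11033, 18948 and 1851 CPM under DSS and 568, 63.8 and 154 CPM under AOM/DSS (log2 fold change -5.34, SE 1.11, adjusted p = 0.00596). Zg16, a mucus lectin, had 1772, 1874 and 2305 CPM under DSS and 83.9, 6.51 and 190.4 CPM under AOM/DSS (log2 fold change -4.41, SE 1.00, adjusted p = 0.00862). Muc2, the gel-forming mucin, and Atoh1, the secretory fate factor, picked after their values were seen, were lower at -3.03 and -2.01 on the log2 scale. Of 17 enteroendocrine genes 15 were lower and 1 higher (median -3.92). Sst, which encodes somatostatin, had 89.3, 33.3 and 11.5 CPM under DSS and 0.0584, 0 and 0.0983 CPM under AOM/DSS, a ratio of 865 (95% counting interval 296 to 4198) in favour of DSS. Gcg, the precursor of GLP-1, had 76.9, 56 and 29.9 CPM under DSS and 0.117, 0.221 and 1.97 CPM under AOM/DSS (log2 fold change -6.11, SE 0.88, adjusted p = 0.00126). The only one higher was the factor Isl1 (4.98, named after its value was seen), and Pyy was not called (-2.01). Tuft cell genes were mixed, with 6 of 13 lower and 2 higher. Trpm5, their taste channel, had 18.5, 13.6 and 10.8 CPM under DSS and 1.69, 2.08 and 1.38 CPM under AOM/DSS. Avil, an actin-binding protein, had 16.6, 10.6 and 7.07 CPM under DSS and 110.2, 198 and 130.1 CPM under AOM/DSS. Of 20 genes of colon position, 8 were lower and none higher. The median of -0.83 became 0.09 with epithelial scaling and -1.70 without AOM/DSS RNF138-/- replicate 3. Cdx1 (-2.36), named after its value was seen, was lower with Cdx2. Gasdermins split: Gsdmc2, Gsdmc3, Gsdmc4 and Gsdme were lower and Gsdma higher of 6 tested. Gsdmc4 had 1532, 1137 and 413 CPM under DSS and 77.1, 4.21 and 80.4 CPM under AOM/DSS, and 39% of its windows recur elsewhere. Gsdma had 1.74, 2.09 and 2.92 CPM under DSS and 49.6, 70.8 and 57.2 CPM under AOM/DSS.

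The largest rises were mostly of Paneth cell genes. Of the 10 largest rises by the naming rule, 8 were alpha-defensins, the antimicrobial peptides of Paneth cells in the small intestine, and 1 was Gm45336. Defa30 (chr8:21134642-21135598, plus strand) had 0, 0 and 0 CPM under DSS and 631, 326 and 698 CPM under AOM/DSS, at least 2861-fold higher against a floor of 3 counts per library. Defa22 had 0, 0 and 0 CPM under DSS and 135, 118 and 106 CPM under AOM/DSS, at least 621-fold higher. Defa24, with 1 read in all DSS libraries, had 0, 0.0675 and 0 CPM under DSS and 1230.2, 1011 and 602 CPM under AOM/DSS, a ratio of 43842 (95% counting interval 7869 to 1731710). Of 28 Defa genes in the counts, 15 passed the filter on low counts, which they could do through the AOM/DSS libraries alone. All 15 were called higher, as were all 9 tested in wild type, counts made after values were seen. These genes are near copies: 52.4% of the Defa30 windows, 99.7% of the Defa5 windows and all of the Defa2 windows occur in another gene, so the split of reads among members is uncertain. The remaining gene was T (brachyury), a mesoderm factor of the embryo, with 0, 0 and 0 CPM under DSS and 33.7, 38.7 and 15.3 CPM under AOM/DSS, at least 152-fold higher. Lyz1, the Paneth cell lysozyme, had 5.55, 3.31 and 8 CPM under DSS and 2282, 3458 and 1927 CPM under AOM/DSS (log2 fold change 8.82, SE 0.50, adjusted p = 5.32e-05). Mmp7, which activates alpha-defensins, had 0.134, 1.22 and 6.78 CPM under DSS and 753, 1142 and 444 CPM under AOM/DSS (log2 fold change 8.14, SE 1.14, adjusted p = 0.00114). For both genes every AOM/DSS library lay far above every DSS library. Of the 21 antimicrobial genes, 10 were higher and 2, Saa1 (-2.33) and Pigr (-1.16), lower. Of the 21 genes of the gastric and small-intestinal list 12 were tested, with 5 higher and 5 lower. Here too, genes near 0 under DSS could pass the filter through the AOM/DSS libraries alone. Gkn3, a stomach gastrokine, had 0.0668, 0.405 and 0.0584 CPM under DSS and 5.49, 42.3 and 6.78 CPM under AOM/DSS. Gkn1 (7.15), Muc6 (5.76) and the stomach claudin Cldn18 (8.05), named after their values were seen, were called higher. Fabp2 was among the lower.

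A microRNA gene and a separate processed transcript on the same chromosome were picked after values were seen. The Mir31 hairpin gene (chr4:88910557-88910662, minus strand, GRCm38) had 0, 0 and 0 CPM under DSS and 5.14, 13.3 and 20.7 CPM under AOM/DSS, at least 67.6-fold higher against the floor. The processed transcript Gm12602 (chr4:89100664-89128226, minus strand) had 0, 0 and 0 CPM under DSS and 0.935, 9.3 and 16.5 CPM under AOM/DSS. The counts are of long RNA reads over the hairpin gene and do not give the level of mature miRNA, whose sequences are printed to identify the locus, with the seed (bases 2 to 8) in capitals.
mmu-miR-31-5p: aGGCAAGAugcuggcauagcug
mmu-miR-31-3p: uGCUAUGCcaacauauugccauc

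Inflammatory genes made up the next group. Of 25 NF-κB target cytokines, chemokines and enzymes, 15 were higher and 2, Ccl5 (-2.83) and Ltb (-2.24), lower (median 2.04). Cxcl2, a neutrophil chemokine, had 0.201, 0 and 0.0584 CPM under DSS and 41.7, 32.5 and 18.2 CPM under AOM/DSS (log2 fold change 8.38, SE 0.67, adjusted p = 0.000149). Cxcl5, another, had 1.94, 0.27 and 0.351 CPM under DSS and 176, 71.5 and 86.3 CPM under AOM/DSS (log2 fold change 7.03, SE 0.73, adjusted p = 0.000398). Cxcl3 had 0.0668, 0 and 0 CPM under DSS and 14.4, 5.22 and 4.03 CPM under AOM/DSS, a ratio of 349 (95% counting interval 62.3 to 13816). Cxcl1, named after its values were seen, had 2.07, 0.608 and 0.409 CPM under DSS and 36.9, 22.2 and 10.9 CPM under AOM/DSS (log2 fold change 4.50, SE 0.70, adjusted p = 0.00174). All 4 were at or near the bottom of the scale under DSS, and the first AOM/DSS library was the highest for each. Il1a (5.67), Il23a (4.56) and Il1b (3.31), named after their values were seen, were higher on the log2 scale, while Tnf (1.90), Il6 (1.85) and Ptgs2 (1.67) were not called. The 30 NF-κB subunits, kinases and inhibitors had 2 higher and 1 lower (median 0.03, and -0.20 to 0.23 without single libraries), or 14 higher and none lower with epithelial scaling. Rel, an NF-κB subunit, had 12.1, 9.86 and 16.8 CPM under DSS and 64.4, 40.2 and 33 CPM under AOM/DSS (log2 fold change 1.83, SE 0.32, adjusted p = 0.0027). Tnfrsf1b, a TNF receptor, had 46.1, 42.7 and 28.2 CPM under DSS and 118, 84.9 and 79.5 CPM under AOM/DSS (log2 fold change 1.27, SE 0.25, adjusted p = 0.0043). Traf1, an adaptor, was lower (log2 fold change -1.69, SE 0.35, adjusted p = 0.00599), a call lost with epithelial scaling (adjusted p = 0.0813).

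The chemokine promoters are printed because the 3 neighbouring genes moved together and hold the same letters. A form of the NF-κB motif, GGGA followed by any 2 bases and TTCC, was searched on both strands in the 250 bases before each start. It was present in 6 of the 18 list members matched to the promoter table and in 1.21% of all 32851 windows. The 6 were Cxcl1, Cxcl2, Cxcl3 and Csf1, which were called higher, Il6, which was not called, and Ltb, which was lower, so the letters did not go with 1 direction. The windows are the 90 bases ending 30 before the start, at chr5:90891125-90891214, chr5:90903779-90903868 and chr5:90785981-90786070, plus strand, and each holds an 11-base run that matches on both strands with the matches overlapping.
Cxcl1: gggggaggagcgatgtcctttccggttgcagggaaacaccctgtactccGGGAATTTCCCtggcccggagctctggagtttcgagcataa
Cxcl2: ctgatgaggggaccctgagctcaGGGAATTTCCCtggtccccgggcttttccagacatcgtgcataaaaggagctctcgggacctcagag
Cxcl3: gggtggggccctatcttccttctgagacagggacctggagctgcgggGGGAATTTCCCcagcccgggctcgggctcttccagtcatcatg

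The capitals spell the same 11 bases in the 3 promoters, at 71, 97 and 73 bases before the start.

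Neutrophils are drawn into tissue by these chemokines, and their markers had 8 of 9 higher and none lower (median 6.57, or 9.67 without DSS RNF138-/- replicate 3). Of 13 neutrophil, 11 mast cell and 13 squamous markers 9 each were tested, and genes near 0 under DSS could pass the filter on low counts through the AOM/DSS libraries alone, so these counts and medians are descriptions. S100a8, a subunit of calprotectin, had 0.0668, 0.0675 and 1.69 CPM under DSS and 128, 99.4 and 51.7 CPM under AOM/DSS (log2 fold change 7.17, SE 0.90, adjusted p = 0.000762), and the chemokine receptor Cxcr2 0, 0 and 0.0584 CPM under DSS and 9.52, 7.04 and 4.32 CPM under AOM/DSS, a ratio of 320.1 (95% counting interval 57.1 to 12674). Summed neutrophil markers were 7.41 to 26.2 CPM of the raw total in DSS and 234 to 530.1 in AOM/DSS. Mast cell markers had 7 of 9 higher and 1, Kit, lower (median 5.43, or 3.30 without AOM/DSS RNF138-/- replicate 1). Their summed level, however, overlapped between the groups, at 74.1 to 101.7 CPM of the raw total in DSS and 81.6 to 316 in AOM/DSS. Mcpt2, a mucosal mast cell protease, had 0.0668, 0.203 and 0.0584 CPM under DSS and 62.6, 6.6 and 3.88 CPM under AOM/DSS (log2 fold change 7.73, SE 1.42, adjusted p = 0.0035), most of it in the first AOM/DSS library. Ms4a2, a chain of the IgE receptor, had 0, 0.0675 and 0.117 CPM under DSS and 5.9, 6.82 and 29.7 CPM under AOM/DSS, a ratio of 224 (95% counting interval 76.3 to 1087). Macrophage and dendritic markers had 2 higher and 3 lower of 15 (13.3% and 20%), near the 16.1% and 19.3% of all genes. The counts were 3 and 1 with library size alone and 9 and 1 with epithelial scaling. Squamous markers had 5 of 9 higher and 3 lower (median 2.71, or 0.96 without AOM/DSS RNF138-/- replicate 1). They included the adhesion protein Dsg3 with 0.0668, 0 and 0.0584 CPM under DSS and 42.7, 9.65 and 4.13 CPM under AOM/DSS. The keratin Krt4 had 0.134, 0.135 and 0 CPM under DSS and 4.09, 11.6 and 14.7 CPM under AOM/DSS.

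Lymphocyte genes were lower. Of 13 B and plasma cell markers 11 were lower and none higher (median -3.63), with Cd79a, a B cell receptor chain, at 44, 16.4 and 32.1 CPM under DSS and 2.92, 1.68 and 1.13 CPM under AOM/DSS (log2 fold change -4.02, SE 0.49, adjusted p = 0.000687). Immunoglobulin genes held 1.45% to 1.66% of all counts in the DSS libraries and 0.118% to 0.307% in the AOM/DSS libraries. Of 16 T and NK cell markers 8 were lower and none higher (median -1.29), with Cd8a from 8.49, 7.43 and 16.4 CPM under DSS to 0.76, 0.31 and 0.344 CPM under AOM/DSS (log2 fold change -4.52, SE 0.52, adjusted p = 0.000568) and Gzma, a granzyme, from 14.5, 12.8 and 28.4 CPM under DSS to 1.93, 4.07 and 3.19 CPM under AOM/DSS. For these genes the 2 groups did not overlap.

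Interferon-stimulated genes were lower: 18 of 30 were lower and none higher (median -1.48, and 12 lower and 2 higher with epithelial scaling). Isg15 (chr4:156199424-156200818, minus strand), a ubiquitin-like protein, had 186, 97 and 83.7 CPM under DSS and 11.1, 4.87 and 5.9 CPM under AOM/DSS (log2 fold change -4.07, SE 0.44, adjusted p = 0.000446). Irf7, the interferon response factor, had 1066, 489 and 382 CPM under DSS and 55.7, 29 and 40.1 CPM under AOM/DSS (log2 fold change -3.96, SE 0.46, adjusted p = 0.000588). Ifit1, which binds viral RNA, had 210.3, 159 and 181 CPM under DSS and 22.3, 10.8 and 9.29 CPM under AOM/DSS (log2 fold change -3.71, SE 0.36, adjusted p = 0.000296). Each was several-fold lower in every AOM/DSS library than in any DSS library. Of 10 MHC class II genes 7 were lower and none higher, H2-Ob going from 12.2, 4.66 and 13.1 CPM under DSS to 1.81, 0.664 and 0.295 CPM under AOM/DSS and H2-Ab1 from 546, 541 and 184 CPM under DSS to 115, 100.1 and 126 CPM under AOM/DSS. H2-Ab1 lost its call with epithelial scaling (-0.93), where 3 of 10 were lower.

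Matrix remodelling genes had 15 of 27 higher and 2, Tnc and Postn, lower (median 1.48), against 16.1% higher and 19.3% lower of all genes. Spp1, osteopontin, had 0.735, 0.81 and 0.0584 CPM under DSS and 449, 98.7 and 149 CPM under AOM/DSS (log2 fold change 8.78, SE 0.90, adjusted p = 0.000376). Mmp10, stromelysin-2, had 1.4, 2.5 and 1.29 CPM under DSS and 252, 126 and 79.2 CPM under AOM/DSS (log2 fold change 6.46, SE 0.54, adjusted p = 0.000182). Collagen chains had 3 of 22 higher and 3 lower (13.6% each way, below the shares of all genes). The counts were 6 and 1 with library size alone and 10 and 1 with epithelial scaling. Fetal-like and YAP target genes had 10 of 22 higher and none lower (median 1.18), Il33, an epithelial alarmin, going from 6.42, 5.81 and 10.3 CPM under DSS to 90.4, 56.8 and 26 CPM under AOM/DSS (log2 fold change 2.94, SE 0.47, adjusted p = 0.00187). Of 10 EGF receptor ligands and receptors the ligands Btc, Nrg1 and Tgfa were higher, at 1.79, 1.74 and 1.67 on the log2 scale, and the other 7 were not called. BMP, TGF-beta and Hedgehog genes had 10 of 28 lower and 3 higher, or 4 lower and 10 higher with epithelial scaling. Chrdl1, a BMP antagonist, went from 26.3, 15.4 and 21 CPM under DSS to 0.76, 0.974 and 1.18 CPM under AOM/DSS (log2 fold change -4.41, SE 0.34, adjusted p = 0.000141), and Inhba (3.79, named after its value was seen) was higher. In the IL-6 and STAT3 group 3 of 21 were higher and 3 lower (14.3% each way, also below the shares of all genes). The counts were 5 and 3 with library size alone and 12 and 2 with epithelial scaling. Il22ra2, the decoy receptor for interleukin-22, had 6.62, 4.79 and 15.7 CPM under DSS and 0.0584, 0.0443 and 0.0491 CPM under AOM/DSS, a ratio of 187 (95% counting interval 63.6 to 910.2) in favour of DSS. Prostaglandin genes had 7 of 20 lower and 2 higher, or 7 and 5 with library size alone and 4 and 6 with epithelial scaling. Alox15, a lipoxygenase, was among the higher and went from 1.14, 0.473 and 0.234 CPM under DSS to 205, 134 and 14.4 CPM under AOM/DSS (log2 fold change 7.59, SE 1.11, adjusted p = 0.00134), and Ptgis, prostacyclin synthase, was among the lower and went from 49.5, 27.9 and 14.3 CPM under DSS to 2.05, 0.93 and 2.46 CPM under AOM/DSS.

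Of 30 proliferation genes, 4 were higher and none lower (median 0.49, or 0.31 without AOM/DSS RNF138-/- replicate 1), against 16.1% and 19.3% of all genes. Over all alternatives 2 to 25 were higher. Among them were the replication helicase subunits Mcm4 (log2 fold change 1.24, SE 0.21, adjusted p = 0.00221) and Mcm7 (log2 fold change 1.13, SE 0.15, adjusted p = 0.000912), with Mcm7 from 47.8, 51.7 and 44.9 CPM under DSS to 113, 102 and 102 CPM under AOM/DSS. Mki67 (0.49, named after its value was seen) was not called. With epithelial scaling 25 of the 30 were higher (median 1.39), but that scaling put the median of all genes at 0.93. The count thus depends on what the tissue is scaled to. The double-strand break repair list had 5 of 27 higher (18.5%, near the 16.1% of all genes) and 1 lower (median 0.66). With epithelial scaling 23 were higher, where 8056 of all 17993 genes were higher. Rnf138 is 1 of the 5, and Blm, a helicase, went from 4.01, 4.86 and 6.78 CPM under DSS to 13.9, 12 and 13.1 CPM under AOM/DSS (log2 fold change 1.32, SE 0.28, adjusted p = 0.00661). The p53 target and damage list had 5 of 20 higher and 2 lower, with Plk2, a polo-like kinase, at 11.2, 27.3 and 25.8 CPM under DSS and 75.5, 81.9 and 94.4 CPM under AOM/DSS. Glycolysis and hypoxia genes had 2 of 22 higher, Hif1a (log2 fold change 2.02, SE 0.31, adjusted p = 0.00165) and Bnip3, and 1, Ldha, lower, and the calls of Bnip3 and Ldha were each lost in 4 of the 6 fits that left out a library. Claudins and tight junction genes had 2 of 19 higher, with Cldn4 from 23.3, 71.2 and 30.9 CPM under DSS to 480.4, 473 and 313 CPM under AOM/DSS, and 4 lower, with Cldn15 from 271, 245 and 135 CPM under DSS to 18.6, 16.8 and 13.2 CPM under AOM/DSS. Red blood cell genes had 4 of 5 higher, skeletal muscle genes 3 of 5 lower and 1 higher, and the single tested pancreatic gene, Cela1, was not called.

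The genes with the largest falls came from several of these groups. Apol10a, an apolipoprotein L gene, had 309, 329 and 519 CPM under DSS and 0.409, 0.133 and 0.197 CPM under AOM/DSS (log2 fold change -10.63, SE 0.46, adjusted p = 2.59e-05), and 7 of 9 tested Apol genes were lower, a count made after values were seen. H2-T3, a non-classical MHC gene of gut epithelium, had 35, 49.6 and 122 CPM under DSS and 0, 0 and 0.0491 CPM under AOM/DSS, a ratio of 4291 (95% counting interval 769.5 to 169519) in favour of DSS. 6 of the 10 largest falls had 0 reads in every AOM/DSS library. Ctxn3 was at least 209-fold lower, Hand1, a factor of gut muscle and neurons, at least 113-fold, Gm36640 at least 108-fold, Chrna3, a ganglionic nicotinic receptor subunit, at least 52.6-fold, and Clvs2 at least 52.3-fold. Retnla, a resistin-like protein, went from 16, 23 and 6.54 CPM under DSS to 0, 0 and 0 CPM under AOM/DSS, at least 99.98-fold. Upk3b, a mesothelial gene, had 102, 54.4 and 9.99 CPM under DSS and 0, 0 and 0.0491 CPM under AOM/DSS.

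**Figure D3:**
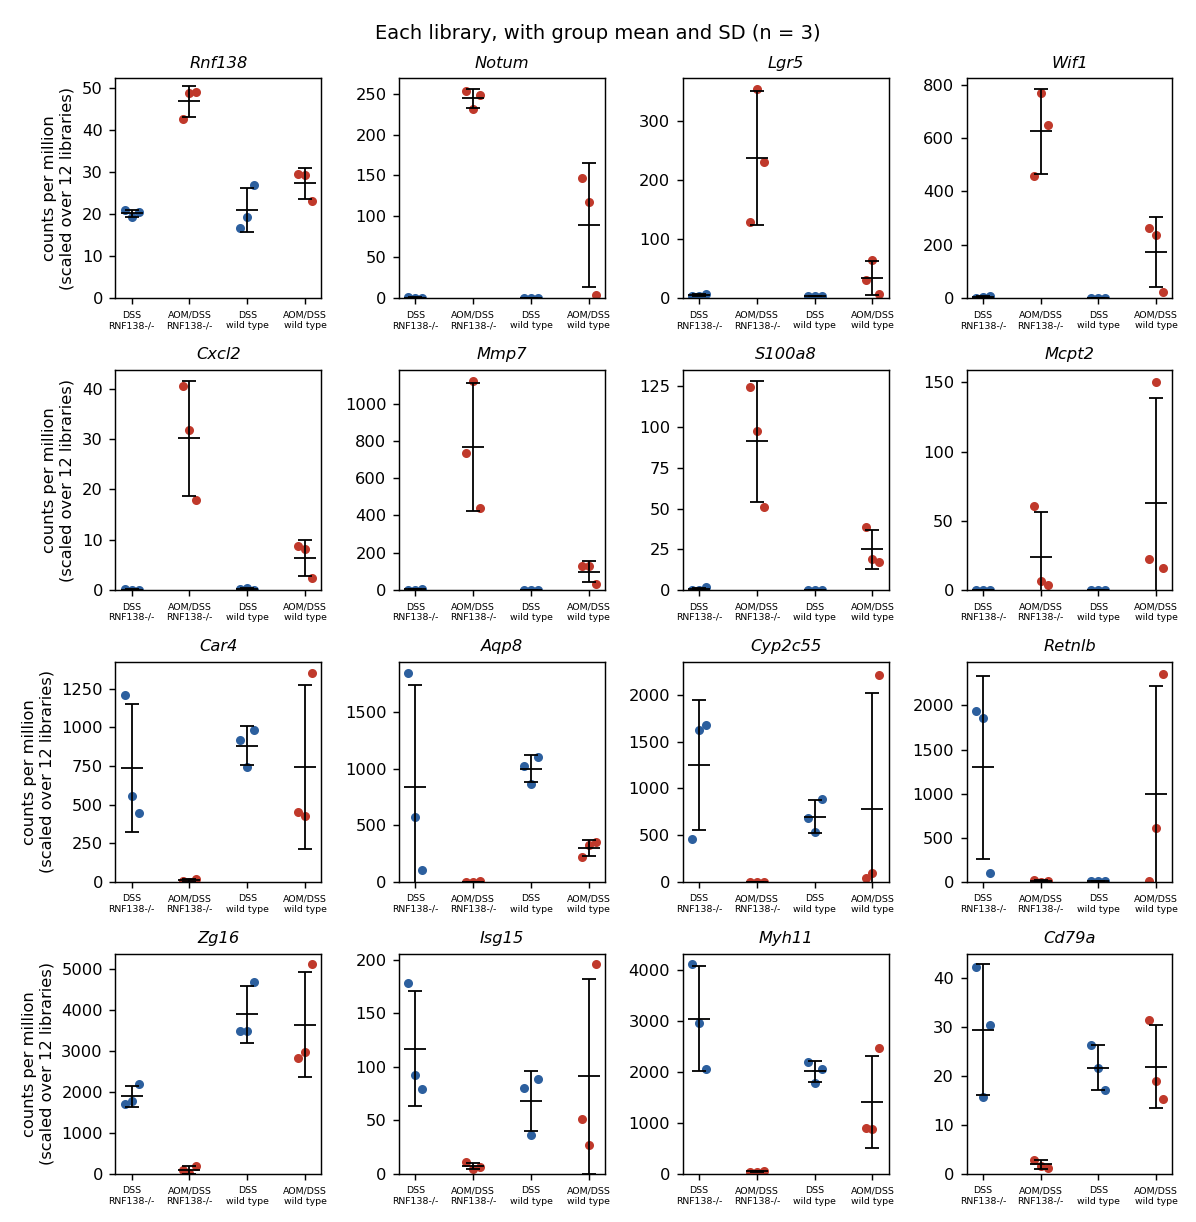
Each panel is 1 gene and each point 1 of the 12 colon libraries, as CPM scaled over the 12 libraries (y axis, linear from 0), with the group mean and SD (n = 3) in black and SD bars cut at 0. The AOM/DSS libraries labelled RNF138-/- sit apart from the other groups for Myh11, Cd79a, Isg15 and Zg16, and above them for Notum, Lgr5 and Mmp7. For Retnlb the wild type points run from 12.6 to 2362 in the AOM/DSS group.

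Whether the wild type colon changed alike was asked in 2 ways. In the wild type fit, 1159 of 17158 genes were higher (6.75%) and 530 lower (3.09%). Of 16837 genes tested in both fits, 897 were higher in both, 39.3% of those higher in the libraries labelled RNF138-/- and 79% of those higher in wild type. 402 were lower in both, 11.9% and 79.1% of the respective lists. 22 were called in opposite directions. In a single fit of the 12 colon libraries, which include the 6 already compared, the difference AOM/DSS against DSS was more positive in the libraries labelled RNF138-/- for 208 of 18843 genes (1.1%) and more negative for 1363 (7.23%). One wild type AOM/DSS library, replicate 3, stood apart: its log2 CPM correlated across genes, which are not independent replicates, at 0.913 to 0.934 with the 6 DSS libraries and at 0.82 to 0.842 with the AOM/DSS libraries labelled RNF138-/-. With replicates 1 and 2 of its own group it correlated at 0.929 and 0.931, and these correlated at 0.978 with each other. Without it the counts were 129 and 1062. With any of the 12 libraries left out, replicate by replicate, there were 24 to 454 more positive and 572 to 1685 more negative genes, the lowest both without DSS wild type replicate 1 (24 and 572) and the highest both without AOM/DSS wild type replicate 2 (454 and 1685). Except for DSS RNF138-/- replicate 3 and AOM/DSS wild type replicate 1, each library left out moved the more positive count by over 1.5 times.

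Called interactions were unevenly spread over the lists. Notum had 0.598, 0.601 and 0.597 CPM in the wild type DSS libraries and 147, 118 and 4.16 CPM in the wild type AOM/DSS libraries, with replicate 3 near the DSS level, a wild type log2 fold change of 7.24 and an interaction (1.83, SE 1.59, adjusted p = 0.489) that did not pass the test. Of the 22 Wnt genes 8 were higher in wild type (median 1.74), with 1 interaction in each direction (4 more positive and 1 more negative without AOM/DSS wild type replicate 3). Over all left-out libraries the Wnt list had 0 to 6 more positive and 0 to 1 more negative. None of the matrix remodelling, fetal-like or EGF receptor genes had a called interaction with all 12 libraries, and up to 4, 1 and 1 were more positive and up to 0, 1 and 1 more negative when single libraries were left out. Neutrophil and mast cell markers had 7 of 8 and 8 of 9 higher in wild type and no called interaction with all 12 libraries. The stem cell list had 6 more positive interactions, 7 without AOM/DSS wild type replicate 3 and 1 to 9 over all left-out libraries. For smooth muscle all 13 interactions were more negative, and none of the 13 genes was called in wild type (median -0.43). Myh11 had 2193, 1779 and 2063 CPM in the wild type DSS libraries and 891, 881 and 2464 CPM in the wild type AOM/DSS libraries, so replicates 1 and 2 lay below every wild type DSS library and replicate 3 above. Des and Cnn1 were also below every wild type DSS library in replicates 1 and 2 and not in replicate 3, with Des at 2153, 1767 and 1493 CPM in the wild type DSS libraries and 439, 876 and 2313 CPM in the wild type AOM/DSS libraries and Cnn1 at 1422, 1064 and 1083 CPM in the wild type DSS libraries and 309, 518 and 1250.1 CPM in the wild type AOM/DSS libraries. Without AOM/DSS wild type replicate 3 there were 11 smooth muscle interactions, and 10 to 13 over all left-out libraries. The interaction was more negative for 11 of 13 B and plasma cell genes, again 11 without that library. It was so for 19 of 29 xenobiotic genes (17 without it) and 14 of 30 interferon-stimulated genes (12 without it). For transport, enteroendocrine and goblet genes it was 9 of 22, 9 of 17 and 8 of 18, or 7, 8 and 6 without it. Leaving out DSS wild type replicate 1 took xenobiotic genes to 7, enteroendocrine genes to 3 and goblet genes to 3, and leaving out DSS wild type replicate 2 took interferon-stimulated genes to 3. For Myh11 the interaction was -5.57, SE 0.60, adjusted p = 0.000962, or -4.95 without AOM/DSS wild type replicate 3. For Isg15 it was -4.44, SE 0.94, adjusted p = 0.0174, or -3.26 without that library, and its call was lost without AOM/DSS RNF138-/- replicate 2. On the 12-library scale Cyp2c55 had 681, 528 and 884 CPM in the wild type DSS libraries and 38.9, 92.9 and 2217 CPM in the wild type AOM/DSS libraries, so 2 of the 3 wild type AOM/DSS libraries were also below every DSS library and replicate 3 was above. Its interaction was -10.32, SE 1.92, adjusted p = 0.0108, or -6.80 without replicate 3. Retnlb, a goblet cell resistin-like protein induced by bacteria, had 1937, 1862 and 103 CPM in the DSS libraries labelled RNF138-/- and 17.5, 1.65 and 7.86 CPM in the AOM/DSS libraries so labelled, and 3.89, 4.39 and 5.43 CPM in the wild type DSS libraries and 12.6, 606 and 2362 CPM in the wild type AOM/DSS libraries. Its interaction was -14.94, SE 2.41, adjusted p = 0.00578, or -13.32 without that replicate, and the fold changes had opposite signs. Among the 5 most positive interactions were the methyltransferase-like genes Mettl7a2 and Mettl7a3, at 5.22 and 4.88. Of their 50-base windows 63.2% and 46.5% recur elsewhere, so their reads are uncertain. Mettl7a3 lost its call in 8 of the 12 fits that left out a library, those without each DSS wild type replicate, each AOM/DSS RNF138-/- replicate and DSS RNF138-/- replicates 1 and 2.

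**Figure D4:**
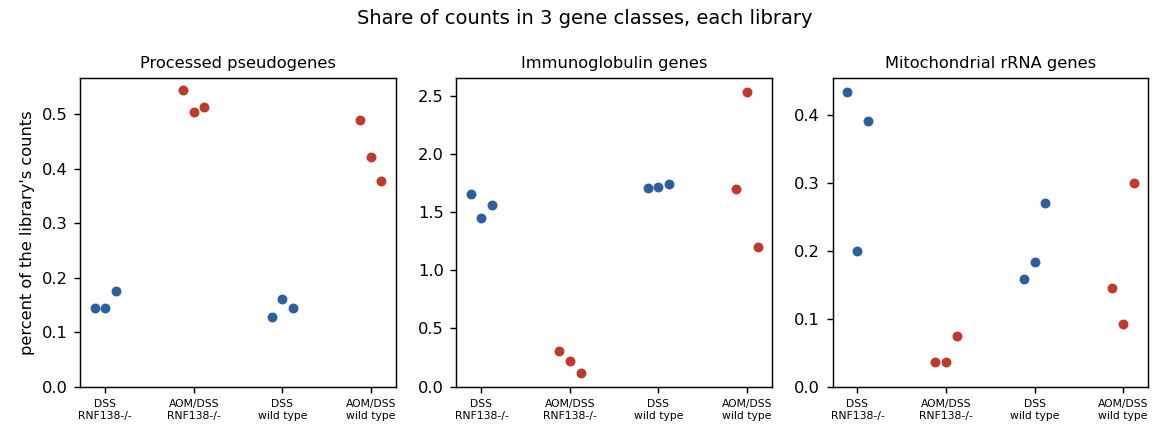
Each point is 1 of the 12 colon libraries, placed by the percent of its counts in processed pseudogenes, immunoglobulin genes or mitochondrial rRNA genes (y axes, linear from 0). Pseudogene shares are 0.378% to 0.545% in the 6 AOM/DSS libraries and 0.128% to 0.176% in the 6 DSS libraries, and immunoglobulin shares are 0.118% to 0.307% in the AOM/DSS libraries labelled RNF138-/-.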

How the data were processed

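RNA of colorectal tissue was sequenced, and the authors deposited raw read counts per gene for 18 samples, of which the 6 colon libraries labelled RNF138-/- were compared and 6 wild type colon libraries used for the interaction. The submitters' processing notes name STAR 2.6.1d, HTSeq 0.11.2, DESeq2 and mm10, without roles, and the strand setting is not given in the sources used here, so reads of overlapping and antisense genes cannot be told apart. A second deposited table holds fold changes and p-values of the authors' own comparisons and was not used.

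Counts were tested with edgeR 4.0.16 in R 4.3.3 (TMM, filterByExpr, quasi-likelihood F test, Benjamini-Hochberg) on 17993 genes. SE is the log2 fold change divided by the root of F. Calls needed an adjusted p under 0.05 and a fold of 2. Groups of 3 allow no exact permutation p below 0.1. p-values measure only the spread between these libraries, which may be technical. Total counts were 15733841 to 19608929. Of 36757 genes, 36700 matched GENCODE M21 for coordinates. Fold bounds use a floor of 3 counts per library, and intervals are 95% Clopper-Pearson. The members and gene lists were chosen with earlier results of these data known. Named were Rnf138, the 10 largest changes each way with groups not overlapping and at least 5 CPM, the 3 largest called members of each list, and the 5 largest interactions each way. Some of these genes are not reported here. Alternatives were RLE, upper quartile and library size scaling, DESeq2 1.42.0, limma-voom (limma 3.58.1), other count filters, left-out libraries, a replicate block, immunoglobulin genes left out, a Y-linked covariate, a fit of 12 libraries, and, added after the data were seen, epithelial scaling and protein-coding genes only. The scripts were tested on simulated data.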

Additional observations from a re-analysis of the deposited data

Results flagged for a closer look

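A difference between AOM/DSS and DSS that itself differed between the libraries labelled RNF138-/- and wild type passed the test of the interaction (edgeR, adjusted p under 0.05 and a ratio of at least 2) for 208 genes that were more positive and 1363 that were more negative in the libraries labelled RNF138-/-. Of the named genes reported here 74 passed, and their interaction values follow on the log2 scale, negative where AOM/DSS against DSS was more negative in the libraries labelled RNF138-/-.

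Among muscle, nerve, fat and fibroblast genes the values were Myh11 (-5.57), Des (-7.03), Cnn1 (-6.36), Prph (-6.37), Vip (-6.77), Sox10 (-5.21), Cdh19 (-6.23), Plin4 (-5.50), Cidec (-7.03), Adipoq (-13.44), Cfd (-14.41), Ckm (-7.99), Acta1 (-3.81), Hand1 (-9.98), Chrna3 (-9.66) and Dpt (-2.30). Among lymphocyte and macrophage genes the values were Mzb1 (-3.80), Cd79a (-3.99), Cd79b (-4.25), Cd8a (-5.04), Nkg7 (-2.54), Gzma (-3.11), Cd163 (-3.79), H2-Ob (-4.45) and H2-DMb2 (-3.16). Among interferon-stimulated genes the values were Isg15 (-4.44), Irf7 (-4.36) and Ifit1 (-4.25). Among absorptive, xenobiotic and other epithelial genes the values were Cyp2c55 (-10.32), Cyp2c65 (-10.87), Ugt2b5 (-9.39), Slc51a (-16.35), Aqp8 (-7.56), Car4 (-6.19), Fabp2 (-9.59), Slc5a8 (-3.27), Krt20 (-3.21), Lgals4 (-1.52), Cdx2 (-4.12), Cldn15 (-2.73), Gsdmc3 (-6.98), Gsdmc4 (-5.69), H2-T3 (-12.47) and Apol10a (-10.92). Among secretory lineage genes the values were Retnlb (-14.94), Clca1 (-6.04), Zg16 (-4.26), Sst (-10.19), Gcg (-3.79), Rgs13 (-3.99) and Trpm5 (-2.98). Among signalling and matrix genes the values were Il22ra2 (-8.56), Col4a6 (-3.02), Chrdl1 (-3.37), Bmp3 (-3.56), Rspo1 (-4.19), Pla2g4c (-11.29) and Ptgis (-2.70). Among remaining genes the values were Clvs2 (-9.73), Retnla (-10.87), Gm36640 (-12.76), Upk3b (-8.64), Ctxn3 (-11.42) and Ctrb1 (-14.13). More positive were Mettl7a2 (5.22), Clec2f (5.02), Mettl7a3 (4.88), Strc (4.43), Clec4d (4.03), Plk2 (1.85), Trp53bp1 (1.40), Blm (1.30), Mcm4 (1.15) and Mcm7 (1.12).

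In Clvs2, Chrna3, Retnla, Gm36640, Hand1, Ctxn3 and Adipoq every AOM/DSS library labelled RNF138-/- was at 0, so the fitted value depends on the prior count and is no bound. Adipoq, Ctrb1 and Cfd were not tested in the fit of 6 libraries. Ctrb1, a pancreatic protease, had 0.0659, 548 and 34.6 CPM in the wild type AOM/DSS libraries on the 12-library scale, and 0, 0 and 3.04 CPM in the DSS libraries labelled RNF138-/-, where all 55 reads were in replicate 3. Its call was lost without that library and in 6 other left-out fits, and kept without each AOM/DSS wild type library. Leaving out single libraries kept between 46 and 74 of the 74, the fewest without DSS wild type replicate 1 and 62 without AOM/DSS wild type replicate 3. All of these left-out fits kept 42 genes. Without AOM/DSS wild type replicate 3 the calls lost were Slc51a (-9.56), Ugt2b5 (-4.40), Zg16 (-3.98), Rspo1 (-3.73), Bmp3 (-2.75), Krt20 (-2.31), Trpm5 (-1.98), Gzma (-1.97), Lgals4 (-1.26), Blm (1.18), Mcm4 (0.93) and Mcm7 (0.86). Of those that kept the call, the ones whose values moved toward 0 by over 2 on the log2 scale were Cyp2c55 (-6.80), Cyp2c65 (-6.60), H2-T3 (-8.33), Gm36640 (-8.68), Apol10a (-7.99), Fabp2 (-6.74), Clvs2 (-7.00) and Pla2g4c (-8.94). Blm, Mcm7, Lgals4 and Ugt2b5 lost the call in 10 of the 12 left-out fits, Mcm4, Gzma and Trpm5 in 9, Gm36640, Krt20, Mettl7a3 and Rspo1 in 8, and Bmp3, Ctrb1 and Zg16 in 7.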

How the results depend on the processing

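For the libraries labelled RNF138-/-, no gene called with all 6 libraries changed sign under any alternative that tested it. Relative to 2895 higher and 3475 lower genes, library size alone gave 4359 higher and 2560 lower. Of the alternatives added after the data were seen, scaling to epithelial markers gave 8056 and 1664, and restriction to protein-coding genes, 14848 tested in place of 17993, gave 1903 and 2951. Leaving out single libraries gave 2492 to 3535 higher and 2962 to 3733 lower genes. The cause of the shifts with scaling was not tested. Of the named genes, Cela1, which was not called (-0.11), changed sign with library size alone (0.27), with epithelial scaling (0.86), and without DSS RNF138-/- replicate 1 (0.13) or AOM/DSS RNF138-/- replicate 1 (0.15), over a range of -0.33 to 0.15 without single libraries. Same-numbered libraries did not deviate together (correlations 0.0097, 0.0019 and -0.018), and not each correlated best with its own number, so they share only a number. A fit with the replicate block gave 2804 higher and 3278 lower genes and 272 and 1303 interactions. Interactions, 208 more positive and 1363 more negative, became 473 and 2033 with DESeq2, and 24 to 454 and 572 to 1685 when single libraries were left out. Without DSS wild type replicates 1, 2 and 3 they were 24 and 572, 40 and 630, and 39 and 688. Without DSS RNF138-/- replicates 1 and 2 the more positive were 64 and 124, and without AOM/DSS wild type replicates 2 and 3 they were 454 and 129. Without AOM/DSS RNF138-/- replicates 1, 2 and 3 they were 83 and 825, 33 and 600, and 98 and 1012. Of the values of named genes over all alternatives, 2683 kept direction and call, 65 lost the call and 4 changed sign. Depth limits the genes near 0, whose folds are given as bounds or with counting intervals that cover counting error only.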

Other observations

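4 Y-linked genes were measured as a check of the libraries, as CPM of the raw library total. Eif2s3y, a translation factor subunit gene on the Y chromosome, had 39.997, 23.2 and 59.1 CPM in the DSS libraries labelled RNF138-/- and 5.34, 114 and 1.01 CPM in the AOM/DSS libraries. Kdm5d, another Y-linked gene, had 57.8, 65.9 and 57.3 CPM in the latter, and Uty 43.7, 50.6 and 41.1 CPM. Ddx3y ran from 23.2 CPM in replicate 2 to 87.3 CPM in replicate 1. With the mean log2 level of these genes as a covariate, 2984 genes were higher and 3428 lower.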
